A study of Mus musculus with 9 samples.

Results

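The comparison described here set 3T3-L1 fat cells given PPAR gamma siRNA against 3T3-L1 fat cells given a control siRNA, on 3 arrays each, 6 of the 9 arrays in the series. All arrays carrying those 2 sample names were taken, and expression was read for 18193 genes, each from its brightest probe set with a single gene symbol. 3T3-L1 is an established line of mouse preadipocytes, fibroblast-like cells that hormone treatment converts to fat cells. The other 3 arrays hold untransfected 3T3-L1 preadipocytes and enter the test only through the shared estimate of the spread. They also counted in the choice of each gene's probe set and of dim probe sets, and a few of their levels are quoted. Both siRNA groups had been differentiated in the same way, for 2 days with the phosphodiesterase inhibitor 3-isobutyl-1-methylxanthine at 0.5 mM, bovine insulin at 10 µg/ml and the glucocorticoid dexamethasone at 1 µM, then 2 more with insulin alone. By day 8, when 95% or more of the cells had the shape of adipocytes, the cultures counted as mature. On day 14 both groups were detached with trypsin and collagenase, electroporated with 2 or 3 nmol of non-targeting or PPAR gamma siRNA, and replated. The sources used here do not give the siRNA sequences, the arrays that had each amount, or the time from transfection to RNA extraction. The series calls the 3 arrays of a group technical replicates, so every p-value below measures only the spread between these arrays.

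PPAR gamma (gene Pparg) is a nuclear receptor that binds DNA as a dimer with a retinoid X receptor and is activated by fatty acid derivatives and by thiazolidinedione drugs. It is required for fat cells to form, and in formed fat cells it is known for driving genes of lipid uptake, storage and release together with C/EBP alpha. The comparison asks which genes of an already mature fat cell change when the receptor is reduced. Changes are differences of log2 array values, PPAR gamma siRNA minus control siRNA, so that -1 stands for 2-fold lower. A gene was called higher or lower at an adjusted p under 0.05 (limma, Benjamini-Hochberg over all probe sets tested).

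The knocked-down gene was low on each of the arrays where it should be. Pparg stood at 12.89, 12.82 and 12.65 on the control arrays and at 9.54, 9.58 and 9.64 on the PPAR gamma siRNA arrays. The groups were far apart, and the arrays within each group lay close together. Pparg fell by 3.20 (SE 0.0948, 95% interval -3.41 to -2.99, adjusted p 1.27e-09), which left 10.9% of the control level on a linear scale. The preadipocyte arrays read 8.12 to 8.35, below the knockdown arrays. In RNA of a whole culture, fewer cells expressing a gene and less RNA per cell cannot be told apart, here and in all results below.

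Of the 18193 genes, 3612 were higher (19.9%) and 2922 lower (16.1%), together 35.9%. At least 2-fold, 1033 were higher (5.68%) and 838 lower (4.61%). At least 8-fold, 28 were higher and 56 lower, and at least 16-fold, 6 were higher and 12 lower. The 3 arrays of the groups did not overlap for 44.4% of genes. The median change of all genes was -0.0088. The plot of change against level shows these genes on both sides of 0 over the whole range of signal. Calls were more frequent among brighter genes. By mean level over the 6 adipocyte arrays, 425 of 8622 genes under 6 were lower and 576 higher. From 6 to 8, 693 of 3756 were lower and 1258 higher. From 8 to 10, 1160 of 4009 were lower and 1220 higher. From 10 to 12 these were 530 and 456 of 1511, and at 12 or more 114 and 102 of 295. The all-gene shares of 16.1% lower and 19.9% higher apply to every list below and are not matched for level. A list share near them is no result about that list. Of 3937 called genes with several probe sets, 2301 had another probe set called the same way and 152 had another called the opposite way. Arrays of the same group correlated at 0.994 to 0.996 over all probe sets, and arrays of different siRNA groups at 0.969 to 0.973. For beta actin, the 3′ minus 5′ probe set difference, a sign of RNA integrity and labelling, was 0.909 to 1.30 on the control arrays and 0.543 to 1.25 on the knockdown arrays, which overlap. Its part in the results was not tested beyond the fits that adjust for it or leave out the arrays of highest difference.

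**Figure D1:**
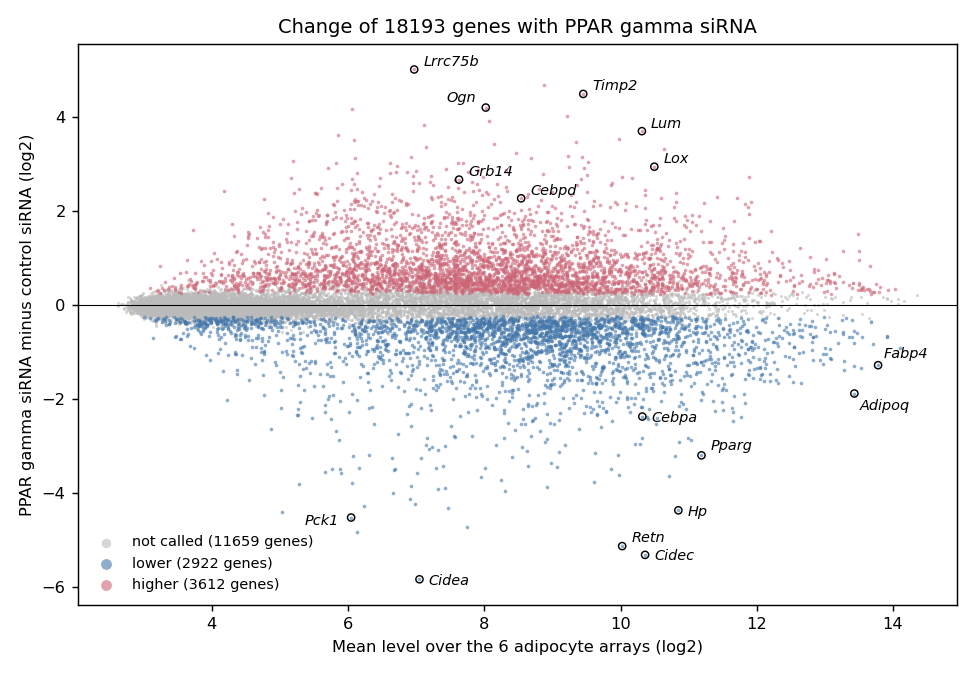
Change with PPAR gamma siRNA (log2, vertical axis) against the mean level over the 6 adipocyte arrays (log2, horizontal axis), 1 point per gene, for 18193 genes. Blue marks the 2922 genes called lower and red the 3612 called higher. The named genes include Cidea at -5.84 and Lrrc75b at 5.02.

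The 12 genes that fell most, among called genes whose arrays did not overlap, included Cidea and Cidec of the fat droplet. Cidea, which promotes fusion and growth of lipid droplets, read 9.73, 10.20 and 9.98 on the control arrays and 4.25, 4.29 and 3.83 on the knockdown arrays. It was 57.4-fold lower, the largest change in either direction. Cidec, its relative in white fat cells, fell from 13.00, 13.08 and 12.98 to 7.54, 7.90 and 7.65, a change of -5.32 (SE 0.103). Retn, which encodes the hormone resistin, fell from 12.69, 12.49 and 12.59 to 7.46, 7.46 and 7.45, a change of -5.13 (SE 0.108). Pck1, the enzyme that makes glycerol backbone from pyruvate in fat cells, read 7.84, 8.61 and 8.47 against 3.98, 3.75 and 3.62 (-4.53). Arrays without overlap were a condition of the choice, so the gap between the groups is no added support for these genes. The other 8 were Rassf6 (-4.84), Ffar2 (-4.73), a receptor for short-chain fatty acids, the galactosyltransferase B3galt2 (-4.41), haptoglobin Hp (-4.37), the aldehyde dehydrogenase Aldh3b2 (-4.33), Lrrc39 (-4.27), the secreted growth factor Nrg4 (-4.25) and Tlcd3b (-4.12). Of the 12, Cidea, Pck1, Rassf6, Ffar2, B3galt2, Aldh3b2, Lrrc39, Nrg4 and Tlcd3b ended below 6 on the log2 scale, a range treated here as dim, where an array can understate a fall. Lrrc39 fell by 2.21 with the mean of all its probe sets.

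The 12 genes that rose most, chosen in the same way, ranged from 3.52 to 5.02. Lrrc75b rose from 4.84, 3.96 and 4.59 to 9.15, 9.77 and 9.52 (5.02, SE 0.204). Timp2, an inhibitor of matrix metalloproteinases, rose from 7.25, 7.19 and 7.17 to 11.56, 11.94 and 11.60 (4.50, SE 0.104). Ogn, a small leucine-rich proteoglycan, rose from 5.97, 5.97 and 5.81 to 10.17, 10.36 and 9.84 (4.21, SE 0.123). Their arrays could not overlap by the way they were chosen, so the gap between the groups is no added support. Also among the 12 were Lhfp (4.69), the intermediate filament gene Synm (4.18), Olfml3 (4.03), the orphan receptor Mrgprf (3.91), Cmtm3 (3.84), the collagen-binding proteoglycan Lum (3.70), the aldehyde dehydrogenase Aldh3a1 (3.62), the matrix gene Dpt (3.54) and Calml4 (3.52). No list was tested for these leading genes, so they are given by name only.

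Genes known as direct PPAR gamma targets in fat cells were lower or not called, and none was higher. Of 32 measured, 26 were lower, 19 of them at least 2-fold, against 16.1% and 4.61% of all genes. Their median control level was 11.18, and of all genes with a mean level of 10 to 12, 530 of 1511 were lower. The targets' median change was -1.56 (-2.40 with dim probe sets left out). A probe set was left out as dim only when all 3 group means were under 6. Genes high in a single group therefore stayed in, and medians without dim probe sets, here and below, support no result. The largest falls were those of Cidea, Cidec, Retn and Pck1. Below them stood the glycerol channel Aqp7, which fell from 8.00, 7.96 and 7.91 to 4.04, 4.24 and 4.21 (-3.79, SE 0.125). The secreted lipase inhibitor Angptl4 fell by 2.92, a value that rests on a probe set of type x or s: it fell by 0.56 (adjusted p 0.0170) without such probe sets. The 6 targets that were not called were Slc27a1, Plin5, Ucp1, Fgf21, Olr1 and Cyp4b1. The fatty acid transporter Slc27a1 read 8.53, 8.69 and 8.67 against 8.40, 8.85 and 8.75, with a change of 0.037 (SE 0.114, adjusted p 0.868). The uncoupling protein Ucp1 was dim in all 6 arrays (3.77 to 4.10).

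Fabp4, Adipoq and Lpl had control values near the top of the array scale. Fabp4, the fatty acid carrier of fat cells, read 14.34, 14.42 and 14.50 on control arrays and 13.05, 13.18 and 13.18 on knockdown arrays (-1.28, SE 0.0870). Adipoq, which encodes adiponectin, read 14.36, 14.37 and 14.39 against 12.52, 12.61 and 12.34 (-1.88, SE 0.0963). The lipoprotein lipase gene Lpl read 14.05, 14.14 and 14.17 against 13.30, 13.28 and 13.30 (-0.82, SE 0.0779). All 3 fell without overlap, by 1.77-fold (Lpl) to 3.69-fold (Adipoq). Their control values lie close to the highest value on the arrays, 14.59, where a fall can be understated. With the mean of all its probe sets, Fabp4 fell by 2.53. The preadipocyte arrays read 3.17 to 3.40 for Adipoq and 5.48 to 5.65 for Fabp4, so both siRNA groups carry these fat-cell markers.

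**Figure D2:**
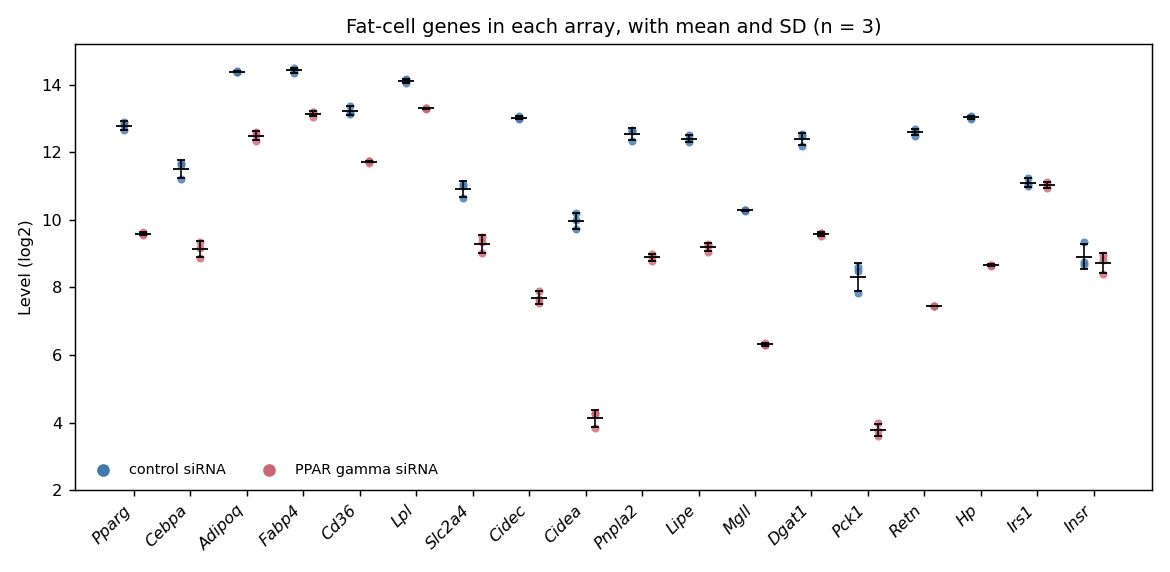
Levels (log2) of 18 fat-cell genes on the 3 control siRNA arrays (blue) and the 3 PPAR gamma siRNA arrays (red). Horizontal lines mark the mean and vertical bars the SD (n = 3). Irs1 and Insr overlap between groups, and the other genes do not.

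Promoters of these genes were looked at because PPAR gamma and retinoid X receptor bind a direct repeat of AGGTCA with 1 base between the repeats. The RefSeq table (GRCm38.p6) holds the 250 bases before a start for 14452 of the genes and for 22 of the 32 targets. A gene counted as holding a motif when any of its listed starts had it on either strand. In all, 15 patterns were searched. The full repeat, AGGTCANAGGTCA, was in 7 of 14452 genes and in none of the 22 targets. The looser repeat AGGNCANAGGNCA was in 57 genes (0.394%), in 8 of 2365 lower genes (0.338%), in 5 of 665 genes lower by at least 2-fold (0.752%), in 3 of 799 higher by at least 2-fold (0.375%) and in none of the targets. The single site AGGTCA, which the full repeat contains, was in 2105 genes (14.6%), in 14.9% of those lower by at least 2-fold, in 11.3% of those higher by at least 2-fold and in 7 of the 22 targets (31.8%). These shares were picked after all were seen and carry no test. Promoters of 4 genes are shown: Cidec, a large fall with no AGGTCA in this window, Aqp7, a target with a single site, and Pdzk1 and Apoc2, lower genes with the looser repeat. Each is written 5′ to 3′ along the gene and ends at the base before the start, with the match in capitals.
Cidec promoter, chr6:113435761-113436010, minus strand: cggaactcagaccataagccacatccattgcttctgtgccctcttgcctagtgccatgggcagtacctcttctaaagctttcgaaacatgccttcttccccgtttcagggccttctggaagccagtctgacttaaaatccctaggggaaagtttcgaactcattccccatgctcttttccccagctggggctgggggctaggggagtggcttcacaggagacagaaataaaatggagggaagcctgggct
Aqp7 promoter, chr4:41048137-41048386, minus strand: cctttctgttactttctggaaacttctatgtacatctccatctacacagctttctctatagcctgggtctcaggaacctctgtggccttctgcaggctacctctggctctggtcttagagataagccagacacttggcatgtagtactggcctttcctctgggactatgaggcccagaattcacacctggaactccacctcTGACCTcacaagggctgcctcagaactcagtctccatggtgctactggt
Pdzk1 promoter, chr3:96829815-96830064, plus strand: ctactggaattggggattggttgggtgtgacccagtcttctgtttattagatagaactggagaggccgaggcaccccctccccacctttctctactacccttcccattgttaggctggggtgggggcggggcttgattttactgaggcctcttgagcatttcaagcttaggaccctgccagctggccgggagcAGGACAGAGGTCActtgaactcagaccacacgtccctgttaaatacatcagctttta
Apoc2 promoter, chr7:19677942-19678191, minus strand: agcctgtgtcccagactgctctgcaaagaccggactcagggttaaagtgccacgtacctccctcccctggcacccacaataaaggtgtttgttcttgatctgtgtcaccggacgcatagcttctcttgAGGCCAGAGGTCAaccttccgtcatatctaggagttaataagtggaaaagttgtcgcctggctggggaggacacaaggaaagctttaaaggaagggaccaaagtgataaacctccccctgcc
The Aqp7 match begins at position -49 and reads TGACCT, the site on the other strand. The Pdzk1 match, AGGACAGAGGTCA, begins at -57, and the Apoc2 match, AGGCCAGAGGTCA, at -122, counting back from -1 at the last base shown. Pdzk1, a scaffold protein gene, fell from 7.45, 7.45 and 7.63 to 4.08, 3.79 and 4.17 (-3.50). Apoc2, the cofactor of lipoprotein lipase, fell from 6.71, 6.61 and 6.84 to 4.64, 4.64 and 4.48 (-2.13). Both were picked for their promoters after their values were known.

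Fatty acids enter the fat cell by transporters and are activated with coenzyme A before use. Of 20 genes for fatty acid uptake, binding and activation, 10 were lower and 4 higher (median -0.24, or -0.75 with dim probe sets left out). The fatty acid transporter Cd36 read 13.12, 13.17 and 13.37 against 11.69, 11.73 and 11.73 (-1.50, SE 0.10). Acsl3, which activates fatty acids with coenzyme A, fell by 1.26 (SE 0.107), while its relative Acsl5 rose by 0.68 (SE 0.107), and Acsl4 was not called (0.12, adjusted p 0.554). Slc27a3 rose by 0.95 (SE 0.132) from a dim level. Lrp1, a receptor for lipoprotein remnants, rose by 0.89 (SE 0.160; 0.58 with the mean of its probe sets).

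Of 20 genes for triglyceride synthesis and glycerol supply, 13 were lower, 10 of them at least 2-fold, and 2 higher (median -0.86, or -1.30 without dim probe sets). Dgat1, which adds the last acyl chain to triglyceride, read 12.52, 12.48 and 12.18 on control arrays and 9.60, 9.60 and 9.51 on knockdown arrays (-2.82, SE 0.0993). It fell by 1.61 without x and s probe sets. Dgat2, the second enzyme of that step, fell by 2.27, as did Gpd1, which makes glycerol 3-phosphate (-1.29 with the mean of its probe sets). Lpin1, the phosphatidate phosphatase, fell by 1.88, and Agpat2, whose loss in humans causes lipodystrophy, fell by 1.14. The 2 higher genes were Agpat4 (0.90) and the dim Lpin3 (0.72). Lpin2 (0.18) and Agpat5 (-0.0434) were not called. The falls thus included genes for each step from glycerol 3-phosphate to triglyceride: Gpam (-0.67), Agpat2, Lpin1 and Dgat1.

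Among 18 genes of the droplet coat and of droplet formation, 8 were lower (44.4%) and 4 higher (22.2%), against 16.1% and 19.9% of all genes. The median was -0.28, or -0.48 without dim probe sets. Besides Cidea and Cidec, Fitm2, which helps droplets bud, fell by 3.15 (SE 0.106). Bscl2, which encodes seipin, fell by 1.61. Plin2 fell by 0.90 and Plin4 by 0.48. In the other direction, the coat protein Plin3 rose from 8.61, 8.62 and 8.62 to 9.69, 10.00 and 9.73 (1.19, SE 0.0980). Hsd17b11 rose by 1.01 (0.67 with the mean of its probe sets) and Rab18 by 0.70. Aup1 (-0.17) and Hilpda (-0.13) were not called.

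Lipolysis, the release of stored fat, showed falls at its enzymes and at the receptors that restrain it. Of 24 genes, 15 were lower, 11 at least 2-fold, and 2 higher (median -0.75, or -1.40 without dim probe sets). Pnpla2, the triglyceride lipase ATGL, read 12.65, 12.64 and 12.32 against 8.78, 8.99 and 8.89 (-3.65, SE 0.111). Lipe, the hormone-sensitive lipase, read 12.31, 12.52 and 12.38 against 9.22, 9.28 and 9.05 (-3.22, SE 0.0923). Mgll, the monoglyceride lipase, read 10.29, 10.29 and 10.27 against 6.28, 6.35 and 6.31 (-3.97, SE 0.0901). All 3 enzymes of the sequence from triglyceride to glycerol were therefore lower on every knockdown array, by 9.29-fold to 15.7-fold. Lipe fell by 1.66 with the mean of its probe sets. Abhd5, the activator of ATGL, fell by 2.54 (1.53 with the mean of its probe sets), and G0s2, its inhibitor, by 1.26. The receptors Ffar2, Hcar2 (-3.03) and Hcar1 (-2.79), which couple to the inhibitory G protein, were lower too. Of the cyclic AMP pathway, Pde3b fell by 1.68 and the regulatory subunit Prkar2b by 1.55. The catalytic subunit Prkacb rose by 0.57 (0.27, adjusted p 0.208, with the mean of its probe sets) and Prkaca was not called (-0.28, adjusted p 0.0558). Gnas rose by 0.68 (0.26, adjusted p 0.131, without x and s probe sets).

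Genes of de novo lipogenesis, the making of fatty acids from citrate, changed by smaller steps. Of 21 genes, 12 were lower (57.1%) and 5 higher (23.8%), against 16.1% and 19.9% of all genes (median -0.44). Fasn, fatty acid synthase, read 11.93, 11.64 and 11.96 against 10.71, 11.004 and 11.12 (-0.90, SE 0.134). Scd1, the stearoyl-CoA desaturase, read 14.53, 14.54 and 14.59 against 13.67, 13.62 and 13.64 (-0.91, SE 0.0816), again near the top of the scale; the mean of its probe sets gave -1.84. Both fell by less than 2-fold from the probe set used, with no overlap. The transcription factor gene Mlxipl (ChREBP) fell by 1.52 and malic enzyme Me1 by 1.47. Srebf1, which encodes the other main lipogenic factor, rose by 0.59 (SE 0.0949). The elongase Elovl6 rose by 1.11 (0.55 with the mean of its probe sets), and the desaturases Fads1 (0.89) and Fads3 (0.47) rose, while Fads2 (0.37, adjusted p 0.0314) lost its call in 9 alternative fits, among them those without any 1 of the control arrays or without PPAR gamma siRNA replicate 2 or 3, and Scd2 (-0.20, adjusted p 0.0873) was not called.

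Genes of cholesterol synthesis were also mostly lower. Of 24 genes for cholesterol synthesis and uptake, 17 were lower and 2 higher (median -0.94, or -0.68 with probe sets averaged by gene). Pmvk fell by 1.60 (SE 0.106), Msmo1 by 1.38 (SE 0.163) and Sc5d by 1.34 (SE 0.135), enzymes early and late in the route. With the mean of their probe sets Msmo1 fell by 0.73 and Sc5d by 0.35. The 2 genes that rose, Npc1 (0.79) and Npc2 (0.56), move cholesterol out of the lysosome. Srebf2 (-0.39), Abca1 (0.22) and Abcg1 (-0.28) were not called.

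Genes of the mitochondrion were lower almost throughout. Of 25 genes of fatty acid beta-oxidation, 23 were lower and none higher (median -1.47). Crat, carnitine acetyltransferase, read 11.31, 11.31 and 11.20 on control arrays and 8.82, 9.15 and 9.0 on knockdown arrays (-2.28, SE 0.0962; -1.50 with the mean of its probe sets). Slc25a20, which carries acylcarnitine into mitochondria, read 10.90, 10.87 and 10.98 against 8.77, 8.45 and 8.75 (-2.26, SE 0.0978). Etfb, which hands electrons to the respiratory chain, read 12.75, 12.74 and 12.71 against 10.53, 10.56 and 10.54 (-2.19, SE 0.0804). Cpt1a, a form of the enzyme that commits fatty acids to oxidation, read 8.74, 8.70 and 8.92 against 8.61, 8.92 and 8.92 and was not called (0.027, SE 0.107, adjusted p 0.899). Acad10 was the other gene not called (-0.25, adjusted p 0.0774). The enzymes of the cycle itself, from Acadvl (-2.07) and Acadm (-1.35) to Hadha (-1.23), Hadhb (-2.09; -1.33 with the mean of its probe sets) and Acaa2 (-2.15), were all lower.

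Of 30 genes of pyruvate entry and the citric acid cycle, 26 were lower, 21 at least 2-fold (median -1.39). Pdhb, a subunit of pyruvate dehydrogenase, read 12.89, 12.82 and 12.94 against 10.48, 10.29 and 10.46 (-2.47, SE 0.0872). Idh3a, of the NAD-dependent isocitrate dehydrogenase, read 12.86, 13.00 and 13.01 against 10.68, 10.50 and 10.56 (-2.38, SE 0.0935). Citrate synthase, Cs, fell by 1.49 (SE 0.0823). Among the regulators of pyruvate dehydrogenase, the kinases Pdk4 (-2.53), Pdk2 (-1.77) and Pdk1 (-0.47) were lower and Pdk3 (0.63) higher. Pdk1 (adjusted p 0.0344) lost its call in 8 alternative fits, among them those without control siRNA replicate 2 or 3 or PPAR gamma siRNA replicate 2 or 3. Its phosphatases moved apart, with Pdp2 at -1.70 and Pdp1 at 1.12, each called. Idh2 (0.19, adjusted p 0.105) and Suclg2 (0.0415) were not called.

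Most subunits of the respiratory chain were lower. In complex I, 33 of 34 subunits were lower and none higher (median -1.02), led by Ndufs1 (12.25, 12.08 and 12.12 against 10.26, 10.26 and 10.26, a change of -1.89). The subunit not called, Ndufb4, was dim in all 6 arrays. All 4 measured genes of complex II were lower: Sdhb by 1.47, Sdhd by 1.30, Sdha by 0.95 (0.57 with the mean of its probe sets) and Sdhc by 0.90. All 9 of complex III were lower (median -1.14), led by Uqcrc1 (-1.67, SE 0.0865). In complex IV, 13 of 15 were lower (median -0.68). The largest falls there were those of Cox7a1 (9.69, 9.91 and 9.83 against 7.40, 7.14 and 7.29) and Cox8b (10.66, 10.73 and 10.90 against 8.58, 8.67 and 8.85), forms of heart, muscle and brown fat, by 2.53 and 2.06. Cox7a2l (0.0254) and Cox6a2 (-0.34) were not called. In complex V, the ATP synthase, 14 of 15 were lower (median -0.70), led by Atp5b (-1.29, SE 0.0788). Atp5g2 (0.13) was not called. Atp5c1 fell by 1.29, but was -0.078 (adjusted p 0.821) without x and s probe sets.

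The 2 kinds of ribosome moved in opposite directions. Of 75 mitochondrial ribosomal protein genes, 63 were lower and 1 higher (median -0.63), while of 42 cytosolic ribosomal protein genes, 2 were lower and 30 higher (median 0.34). Without control siRNA replicate 1, 2 mitochondrial genes were higher, and without that array, control siRNA replicate 2 or PPAR gamma siRNA replicate 1 or 2, 1 cytosolic gene was lower. Mrpl12 fell the most (11.08, 11.11 and 11.23 against 9.19, 9.05 and 9.26, a change of -1.98), and Mrps6 was the 1 higher gene (0.40, SE 0.0853). Among cytosolic genes, Rps19 rose by 0.75 (SE 0.0893), Rpl14 by 0.71 and Rpl37 by 0.67, and none reached 2-fold. Several of these probe sets lie near the top of the scale, and Rplp2 (0.0265) and Rps28 (0.13) were not called. Ribosomal protein genes have many processed copies in the genome, whose transcripts a probe set may also read.

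Of 31 genes of mitochondrial biogenesis and import, 25 were lower and 1, Polg2 (0.52), higher (median -0.68). The coactivator Ppargc1b read 10.32, 10.40 and 10.35 against 7.38, 7.45 and 7.46 (-2.93, SE 0.0847). Its relative Ppargc1a (PGC-1 alpha) read 8.11, 8.17 and 8.31 against 6.59, 6.72 and 7.37 (-1.30, SE 0.229; -0.79 with the mean of its probe sets). Their partner, the orphan receptor gene Esrra, fell by 1.81 (1.13 with the mean of its probe sets). The import channel Tomm40 fell by 1.60, and the mitochondrial transcription factors Tfb2m by 1.48 and Tfam by 0.43. Nrf1 (0.24), Tomm20 (-0.0191) and Fis1 (-0.0657) were not called.

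Branched-chain amino acid breakdown, which feeds carbon to the mitochondria of fat cells, had 22 of 24 genes lower and none higher (median -1.05); 1 was higher without PPAR gamma siRNA replicate 1. Bcat2, the mitochondrial transaminase, read 9.91, 10.14 and 9.71 against 7.81, 7.97 and 7.75 (-2.08, SE 0.112). Bckdhb, a subunit of the branched-chain ketoacid dehydrogenase, fell by 2.03, and its inhibiting kinase Bckdk was not called (0.0114, adjusted p 0.961). Of 34 peroxisomal genes, 19 were lower and 4 higher (median -0.46); 2 were higher without PPAR gamma siRNA replicate 1 and 1 without PPAR gamma siRNA replicate 3. The thiolase Acaa1b fell by 3.49 (SE 0.109), the very-long-chain transporter Abcd2 by 3.37 (2.07 with the mean of its probe sets) and Pex11a, which drives peroxisome division, by 2.17. Of the 4 higher genes, Acox2 (0.38, adjusted p 0.0495) lost its call in 16 of the alternative fits. Brown fat genes had 8 of 19 lower and none higher, all but 2 of the 8 at least 2-fold. The other 11 were not called, among them Ucp1, Prdm16 and Dio2. Of the 19, 13 were dim in every group, where an array can miss a change, so no call does not mean no effect.

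**Figure D3:**
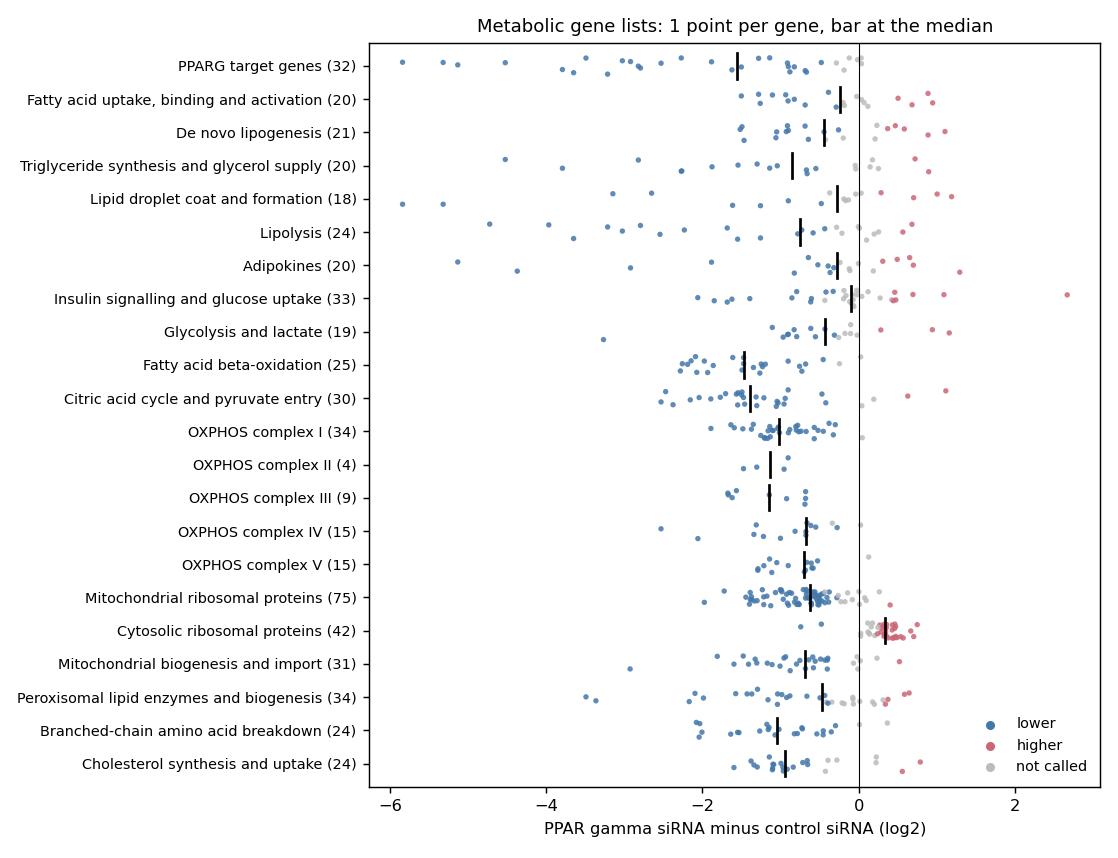
Change with PPAR gamma siRNA (log2, horizontal axis) of the genes in 22 metabolic lists (rows, with the number of measured genes), 1 point per gene. Blue points were called lower, red higher and grey not called, and the black bar is the list's median, from -1.56 for PPARG targets to 0.34 for cytosolic ribosomal proteins.

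Of 33 genes of insulin signalling and glucose uptake, 11 were lower (33.3%) and 6 higher (18.2%), against 16.1% and 19.9% of all genes. The list's median control level was 9.24. Of all genes with a mean level of 8 to 10, 1160 of 4009 were lower and 1220 higher, so the list's lower share was near that of equally bright genes. The other 16 were not called (median of the list -0.0948, or -0.16 without x and s probe sets). The insulin-responsive glucose transporter Slc2a4 (GLUT4) read 11.01, 11.07 and 10.64 against 9.0, 9.49 and 9.35 (-1.62, SE 0.226). Trarg1, which travels with GLUT4, fell by 2.06 (SE 0.161). The receptor substrate Irs2 read 9.44, 9.09 and 8.89 against 7.28, 7.10 and 7.48 (-1.85, SE 0.167). Grb14, an inhibitor of the insulin receptor, rose from 6.38, 6.0 and 6.49 to 8.62, 9.06 and 9.21 (2.67, SE 0.158; 1.42 with the mean of its probe sets). The arrays of these 4 genes did not overlap, which held for 44.4% of all genes. The receptor gene Insr (8.75, 8.65 and 9.33 against 8.80, 8.39 and 8.96) and Irs1 (11.06, 10.995 and 11.24 against 10.93, 11.04 and 11.12) overlapped and were not called, at -0.19 (adjusted p 0.528) and -0.0703 (adjusted p 0.656). The kinases Akt1 (0.12) and Akt2 (-0.0596) were not called either, nor was the basal transporter Slc2a1 (0.42, adjusted p 0.156).

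Of 19 glycolysis and lactate genes, 11 were lower and 3 higher (median -0.43). Pfkfb3, which makes the activator fructose 2,6-bisphosphate, read 8.87, 8.63 and 8.61 against 5.46, 5.38 and 5.47 (-3.27, SE 0.121). The other falls were 1.11 or less, with the lactate transporter Slc16a1 at -1.11 (-0.62 with the mean of its probe sets) and Pfkl at -0.97. Eno3 (1.161) and Hk1 (0.95) rose, and Hk2 fell by 0.79 (0.53 without PPAR gamma siRNA replicate 2). Tpi1 (-0.26, adjusted p 0.0583) and Pkm (-0.0194) were not called.

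Of 20 adipokine genes, secreted products of the fat cell, 10 were lower and 5 higher, against 16.1% and 19.9% of all genes (median -0.28, or -0.46 without dim probe sets and -0.15 with probe sets averaged by gene). Without PPAR gamma siRNA replicate 1 or control siRNA replicate 3, 3 were higher. After Retn, the largest fall was that of Hp, from 12.99, 13.07 and 13.04 to 8.68, 8.67 and 8.64 (-4.37, SE 0.143). Apoe rose from 7.84, 7.63 and 7.78 to 8.98, 9.09 and 9.07 (1.30, SE 0.0876), and the phospholipid transfer protein Pltp rose by 0.70 (1.32 without x and s probe sets). Lcn2 rose by 0.65 at a dim level with overlapping arrays, and lost its call without PPAR gamma siRNA replicate 1 or control siRNA replicate 2 or 3. Leptin, Lep, was dim in all 6 arrays (3.62 to 3.95) and was not called (0.19, adjusted p 0.272).

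The transcription factors of fat-cell formation were split. Of 26 measured, 9 were lower (34.6%), 6 higher (23.1%) and 11 not called, against 16.1% lower and 19.9% higher of all genes. The median was 0.017, or 0.16 without PPAR gamma siRNA replicate 1. The list's median control level was 8.36. Of all genes with a mean level of 8 to 10, 1160 of 4009 were lower and 1220 higher. The list's lower share was near theirs and its higher share below. Cebpa read 11.69, 11.63 and 11.20 against 8.87, 9.35 and 9.17 (-2.37, SE 0.171). Cebpb, an early factor, read 11.18, 11.34 and 11.12 against 10.55, 10.74 and 10.98 (-0.46, SE 0.120), close to overlap, and lost its call without control siRNA replicate 2 or PPAR gamma siRNA replicate 1. Cebpd, the other early factor, rose from 7.53, 7.43 and 7.25 to 9.42, 9.77 and 9.84 (2.27, SE 0.144; 1.06 with the mean of its probe sets). The 3 family members thus stood at 5.19-fold lower, 1.37-fold lower and 4.84-fold higher. Klf15 fell by 1.47 and Ebf2 by 1.26. Gata2, known to hold back fat-cell formation, read 6.71, 6.07 and 6.57 against 6.09, 6.74 and 6.69, and Gata3 was dim. Neither was called (0.0594, adjusted p 0.871; -0.12, adjusted p 0.648).

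Of 22 receptors and coregulators of the PPAR, RXR and LXR group, 9 were lower and 6 higher (median -0.20, or -0.33 without x and s probe sets). Rxrg fell by 2.16 (SE 0.106), and Rxra, the main partner of PPAR gamma in fat, read 9.08, 8.84 and 8.63 against 9.12, 9.65 and 9.52 (0.58, SE 0.146), higher by 1.49-fold, or by 0.31 on the log2 scale with the mean of its probe sets. The liver X receptor gene Nr1h3 fell by 1.96. Of the other PPARs, Ppara fell by 0.59 at a dim level, and Ppard was not called (-0.27, adjusted p 0.285). Tbl1xr1 rose by 0.80 from its brightest probe set, with 2 other probe sets of the gene called the same way and 1 the opposite way. It was -0.395 (adjusted p 0.0129) without x and s probe sets and 0.34 with the mean of its probe sets.

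Genes known to mark preadipocytes or to hold back fat-cell formation rose more often than they fell. Of 36 measured, 19 were higher (against 19.9% of all genes), 11 of them at least 2-fold, and 3 lower (median 0.52). The receptor Pdgfra, a marker of fat progenitors, read 8.70, 8.39 and 8.65 against 10.99, 11.28 and 11.17 (2.56, SE 0.109). Fst, which encodes the activin-binding follistatin, read 5.81, 4.95 and 5.93 against 7.97, 8.63 and 8.66 (2.86, SE 0.242). Zfp521 rose by 2.74 (SE 0.119) and Sox9 by 2.33 (SE 0.157). Dlk1, the preadipocyte factor Pref-1, rose from 11.02, 10.92 and 10.37 to 12.13, 12.91 and 12.66 (1.80). Every knockdown array was above every control array for these 5 genes, as for 3533 of all 3612 higher genes. The 3 that fell were Wnt5a (-1.78; -1.01 with the mean of its probe sets), Id4 (-1.23; -0.79 with that mean) and Cebpg (-1.01).

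The matrix lists were mostly higher. Of 47 matrix glycoproteins and proteoglycans, 32 were higher, 21 at least 2-fold, and 3 lower (median 0.72). Lum read 8.47, 8.33 and 8.58 against 11.97, 12.41 and 12.12 (3.70, SE 0.145). The proteoglycan Dcn rose from 10.78, 10.90 and 10.82 to 12.78, 13.02 and 12.92 (2.08; 1.07 with the mean of its probe sets), and fibronectin, Fn1, from 11.31, 11.33 and 11.39 to 12.63, 12.79 and 12.74 (1.37). Emilin2 (-1.18), Ccn2 (-0.57) and Fbn2 (-0.37) fell, the last 2 at dim levels. Fbn2 lost its call in 6 alternative fits, among them those without control siRNA replicate 3 or PPAR gamma siRNA replicate 2 or 3, and was -0.20 with the mean of its probe sets.

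Of 36 collagens and collagen-processing genes, 19 were higher and 3 lower (median 0.42). The crosslinking enzyme Lox read 9.14, 9.01 and 8.91 against 11.82, 12.14 and 11.95 (2.95, SE 0.0996). Of fibrillar chains, Col3a1 rose by 1.52 and Col1a1 by 1.33. The procollagen proteinase Bmp1 rose by 2.10 and its enhancer Pcolce2 by 2.45. Collagen VI, the main collagen around fat cells, was divided, with Col6a1 higher (0.51) and Col6a2 (-0.0094) and Col6a3 (0.0178) not called. Of 31 matrix proteases and inhibitors, 18 were higher and 4 lower (median 0.67, or 1.01 without dim probe sets). Mmp14, a membrane-bound collagenase that fat-tissue growth is known to need, read 9.61, 9.68 and 9.58 against 11.91, 11.98 and 12.12 (2.38, SE 0.0846). Inhibitors rose beside proteases, with Timp1 at 1.92, Timp3 at 1.11 (0.70 with the mean of its probe sets) and Timp4 at 1.55 next to Timp2. Mmp13 (-2.03), Adam12 (-1.44) and Adam17 (-0.76) fell.

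Of 40 actomyosin and contractile genes, 28 were higher and 1, Des (-0.63; -0.30 with the mean of its probe sets), lower (median 0.73, or 0.46 with that mean for all genes). Cnn2, an actin-binding calponin, read 8.05, 7.84 and 8.08 against 10.79, 11.26 and 11.07 (3.05, SE 0.120). Flna, the crosslinker filamin A, read 8.19, 8.07 and 7.98 against 10.36, 11.05 and 10.88 (2.68, SE 0.151). Smooth muscle actin, Acta2, rose by 1.70 from a probe set of type x or s, by 0.55 with the mean of its probe sets, and was -0.14 (adjusted p 0.474) without such probe sets. Actb overlapped and was not called (0.46, adjusted p 0.104), and neither was Actn4 (0.0121). Integrins and focal adhesion genes were split, with 10 of 31 higher (32.3%) and 7 lower (22.6%), against 19.9% and 16.1% of all genes (median -0.030). The list's median control level was 8.63. Of all genes with a mean level of 8 to 10, 1220 of 4009 were higher and 1160 lower. The list's higher share was near theirs and its lower share below. Cd44 (1.74) and Itgav (1.70; 0.71 with the mean of its probe sets) rose, and Itga1 (-1.83; -1.07 with that mean), Itga6 (-1.43), Lims2 (-1.48) and the caveolar genes Cavin2 (-1.21), Cav2 (-0.95) and Cav1 (-0.81) fell. Of the other caveolar genes, Cavin1 was not called (-0.40, adjusted p 0.164) and Cavin3 rose by 0.78.

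**Figure D4:**
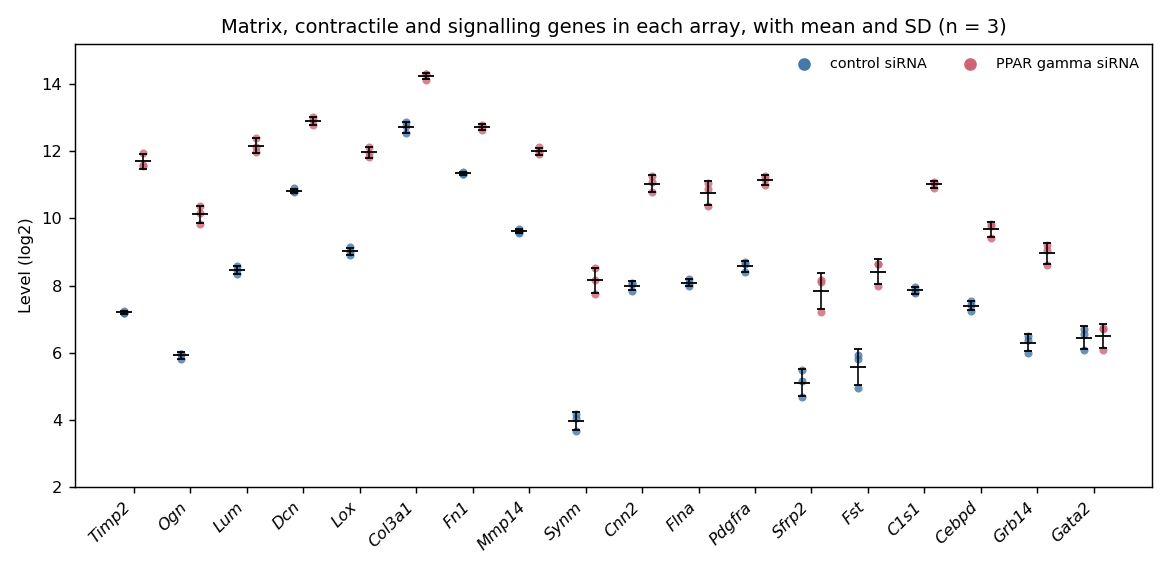
Levels (log2) of 18 matrix, contractile and signalling genes on the 3 control siRNA arrays (blue) and the 3 PPAR gamma siRNA arrays (red). Horizontal lines mark the mean and vertical bars the SD (n = 3). Gata2 overlaps between groups, and the other 17 genes are higher on all PPAR gamma siRNA arrays.

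Of 54 genes of TGF-beta, BMP and Wnt signalling, 20 were higher and 6 lower, with 28 not called (median 0.13, or 0.31 without dim probe sets). The higher share was 37.0%, against 19.9% of all genes, at a median control level of 6.84. Of all genes with a mean level of 6 to 8, 1258 of 3756 were higher, so the list's higher share was near theirs. Beside Fst, the Wnt-binding Sfrp2 read 5.49, 4.69 and 5.15 against 7.21, 8.10 and 8.17 (2.71, SE 0.251). The ligand Tgfb3 rose by 1.86 (SE 0.169) and its relative Tgfb2 fell by 0.97 (SE 0.125; 0.60 with the mean of its probe sets). The effector Smad3 rose by 1.62. Wnt10b, the Wnt best known for blocking fat-cell formation, was not called (-0.0214). Of 38 genes of IGF and other growth factor signalling, 14 were higher (36.8%) and 9 lower (23.7%), against 19.9% and 16.1% of all genes (median 0.0858). The median control level of this list was 7.55, so its higher share too was near that of equally bright genes. Klb, the co-receptor for FGF21, read 10.86, 10.83 and 10.87 against 6.99 on each knockdown array (-3.87, SE 0.142; -2.32 with the mean of its probe sets). Pdgfrb rose by 2.16 (SE 0.116) and Igfbp3 by 2.22 (SE 0.323). Ghr (0.22) and Fgfr1 (-0.25) were not called.

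Immune genes were higher in part. Of 33 inflammatory genes and chemokines, 15 were higher and 3 lower (median 0.16, or 0.49 without dim probe sets). Vcam1, an adhesion molecule for leukocytes, read 9.16, 9.11 and 9.24 against 10.96, 11.38 and 11.47 (2.10, SE 0.121). Cxcl5 rose by 1.98, Tlr2 by 1.76, Il6 by 1.43 and Ccl2 by 1.40. Tnf (0.087) and Il1b (-0.0031) were not called. Tlr4 fell by 0.71, and Cxcl10 (-0.85, adjusted p 0.0396) overlapped and lost its call in 11 alternative fits. In the complement and acute-phase list, 8 of 22 were higher (36.4%) and 4 lower (18.2%), against 19.9% and 16.1% of all genes. The median was -0.0037, or 0.50 without dim probe sets. The complement proteases C1s1 (7.97, 7.81 and 7.78 against 10.90, 11.08 and 11.06, a change of 3.16) and C1ra (2.19) rose, as did Clu (2.45), and Hp and the acute-phase gene Orm1 (-1.29) fell. Of 27 interferon and antigen-presentation genes, 10 were higher, with Ifit2 (1.63) and Bst2 (1.60) foremost, and 3 lower, with Gbp3 (-1.68) and Gbp2 (-1.04) foremost (median 0.30). Without control siRNA replicate 2, 6 were higher (median 0.19), and without PPAR gamma siRNA replicate 2, 14. Without PPAR gamma siRNA replicate 1, 5 were lower and the median was 0.13. With all arrays the list's higher share was 37.0%, at a median control level of 8.84. Of all genes with a mean level of 8 to 10, 1220 of 4009 were higher.

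Markers of other cells were looked at beside these genes. Of 15 macrophage and leukocyte markers, 12 were dim in every group, and 2 were higher: Cd14 (6.68, 6.59 and 6.79 against 8.46, 8.31 and 8.61) and Cd68 (5.43, 5.33 and 5.33 against 7.21, 6.09 and 6.38). The defining markers Ptprc and Adgre1 were dim and not called (0.0962, adjusted p 0.602; -0.19, adjusted p 0.230). Summed over the list, log2 levels ranged from 70.2 to 71.2 on control and 71.2 to 75.1 on knockdown arrays. None of 13 endothelial markers was called, 12 of them dim, with sums of 56.3 to 57.8 and 56.4 to 58.8, and 1 was lower without replicate 3 of any 1 of the 3 groups. Of 13 bone, cartilage and muscle markers, 10 were dim, 4 were higher, led by Sox9, and 2 lower, led by Alpl (-1.24), with sums of 59.3 to 60.4 and 61.5 to 62.1. Leaving out any 1 array other than control siRNA replicate 1 left 1 lower.

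Lysosomal genes were mostly higher, and proteasome genes were lower more often than higher. Of 36 lysosomal genes, 23 were higher and 4 lower (median 0.45). Asah1, acid ceramidase, read 9.60, 9.78 and 9.78 against 11.27, 11.33 and 11.25 (1.57, SE 0.0824), and Gusb (1.57) and Ctsa (1.46; 0.74 with the mean of its probe sets) rose with it. Ctsb fell by 0.45, and Ctsd was not called (0.0652). Of 32 proteasome subunits, 16 were lower and 2 higher (median -0.22), led by Psma1 (-1.47, SE 0.0774). Under quantile normalisation 11 were lower. The median control level of the subunits was 11.04, in the range of 10 to 12 where 530 of 1511 genes were lower. In the unfolded protein and stress response list, 9 of 29 were lower (31.0%) and 4 higher (13.8%), against 16.1% and 19.9% of all genes. The median was -0.0124, or -0.11 without PPAR gamma siRNA replicate 1. The list's median control level was 10.08. Of all genes with a mean level of 10 to 12, 530 of 1511 were lower and 456 higher, so the list did not stand above them. Dnajb9, a chaperone of the endoplasmic reticulum, fell by 2.38 (SE 0.0934) and the transcription factor gene Xbp1 by 1.14, while Hspa5 (0.25) and Atf4 (0.10) were not called.

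Of 40 DNA replication and mitosis genes, 18 were higher and 2 lower (median 0.44), and 2 of the 18 reached 2-fold. Without PPAR gamma siRNA replicate 3 or control siRNA replicate 2, 11 were higher, and without PPAR gamma siRNA replicate 1, 23. Mcm6, of the replicative helicase, read 7.69, 7.10 and 7.57 against 8.29, 8.63 and 8.67 (1.08, SE 0.153). Ccnb2 rose by 1.01 (SE 0.200), whereas Mki67 (0.47), Top2a (0.41) and Cdk1 (0.31) were not called. Of 23 genes of cell cycle entry and G1, 9 were higher and 7 lower (median -0.0074). These were 39.1% and 30.4%, at a median control level of 8.05. Of all genes with a mean level of 8 to 10, 1220 of 4009 were higher and 1160 lower. The cyclin gene Ccnd1 (1.02) and its kinase Cdk4 (1.19) rose, and so did the inhibitors Cdkn2a (1.73) and Cdkn1b (1.68). Ccne2 (-1.95), Cdkn2c (-1.35) and Myc (-1.22) fell.

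Of 38 antioxidant and glutathione genes, 15 were lower (39.5%) and 7 higher (18.4%), against 16.1% and 19.9% of all genes. The list's median control level was 10.12. Of all genes with a mean level of 10 to 12, 530 of 1511 were lower. The list's lower share was near that of these equally bright genes. In the list, a further 16 were not called (median -0.14). The lower genes included the mitochondrial ones Sod2 (-1.50), Prdx3 (-1.41) and Txn2 (-1.13), and Mgst2 (-2.46, SE 0.118). Gstt1 rose from 6.70, 6.57 and 6.59 to 9.28, 9.41 and 9.35 (2.73, SE 0.0844), and Nqo1, a quinone reductase, rose by 2.55 (SE 0.192). Genes often used as references were no more even: of 10, 4 were lower and 2 higher (1 higher without control siRNA replicate 1 or PPAR gamma siRNA replicate 2), with Tfrc at -1.85, Hprt at -0.67 and Gusb at 1.57, while B2m (0.0783) and Tbp (0.098) were not called.

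**Figure D5:**
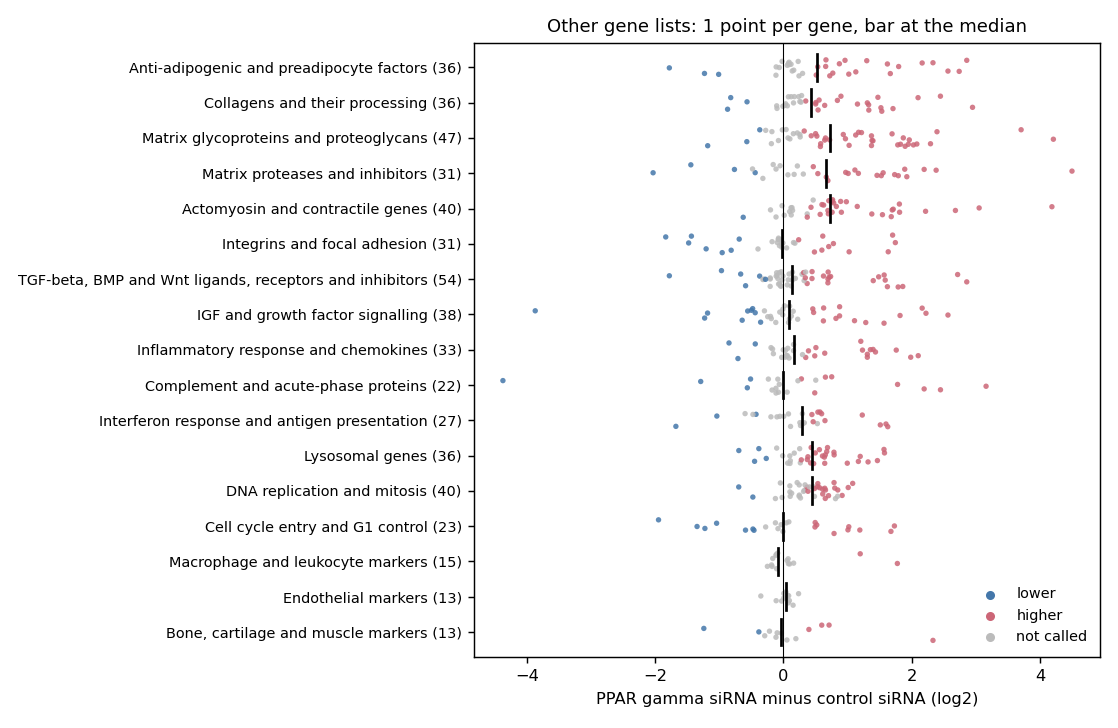
Change with PPAR gamma siRNA (log2, horizontal axis) of the genes in 17 lists of matrix, signalling, immune, lysosomal, cell cycle and marker genes (rows, with the number of measured genes), 1 point per gene. Blue points were called lower, red higher and grey not called, and the black bar is the list's median, from -0.0900 for macrophage markers to 0.73 for actomyosin genes.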

How the data were processed

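Total RNA of 9 samples was measured on 9 single-colour oligonucleotide arrays in 3 groups of 3, grouped by the sample labels. The deposited values are probe set summaries on a log2 scale that the authors had normalised, and their base was read from their range. MAS5, RMA and affy 1.16.0 are named in the submitters' processing notes without role or order. The 64 control probe sets were left out, and 45037 were tested. By the platform annotation, each of 18193 genes was read from its single-symbol probe set whose average over all 9 arrays was highest. With limma 3.58.1 in R 4.3.3, a mean per group was fitted over the 9 arrays with moderated variances, and PPAR gamma siRNA minus control siRNA was tested on both sides, adjusted over all tested probe sets and called under 0.05. No scaling was added.

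On simulated data made from these arrays, with 18193 genes of which 200 were changed, the fit called 62% of 1.5-fold and 98% of 2-fold changes, none of 50 changed by 1.2-fold, and 1 unchanged gene. In the data 35.9% of genes were called, so the adjustment was stricter in the simulation, and these rates do not carry over to this comparison. The number of arrays limits the precision.

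The 46 gene lists (1280 of 1408 entries measured, 1192 different genes) and the genes compared were chosen with earlier results of these data known, so list counts and medians are descriptions without a test. Genes were named by rule: fixed fat-cell genes, the 12 largest rises and falls among called genes whose arrays did not overlap, and per list up to 3 falls, 3 rises and 2 uncalled members. Other list members named in the text were chosen after their values were seen. List entries without a single-symbol probe set are not analysed here. Alternatives are given in the closing section. Promoter sequences are from RefSeq, GRCm38.p6.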

Additional observations from a re-analysis of the deposited data

How the results depend on the processing

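The counts of 3612 higher and 2922 lower genes stayed within 1.5 times under quantile normalisation, median centring, a fit of the 6 adipocyte arrays, an intensity trend, averaging over a gene's probe sets, leaving out dim or x and s probe sets, the beta actin 3′ to 5′ difference as a covariate and omission of the arrays of its highest value. A 2-fold minimum left 1033 higher and 838 lower genes, and a test against 1.2-fold 2131 and 1726. Without single arrays, 3137 to 3563 were higher and 2562 to 2824 lower. Replicate numbers did not pair the samples: deviations of same-numbered arrays correlated at -0.19, 0.17 and -0.11. With a replicate block, 3477 genes were higher and 2837 lower, and 6208 calls were shared. No calls of opposite sign arose, except 12 when probe sets were averaged and 6 without x and s probe sets. Of the named genes, 3 reversed without x and s probe sets: Dmp1 to -0.0887 (adjusted p 0.734), Acta2 to -0.14 (adjusted p 0.474) and Tbl1xr1 to -0.395 (adjusted p 0.0129). Named genes that lost their call in 9 or more fits were Acox2, Bub1, Col10a1, Cxcl10, Fads2 and Rpl12. Pdk1 lost it in 8, Fbn2 in 6, Lcn2 in 4 and Cebpb in 3. Pfkm and Rplp0 lost it in 7 each, Col2a1 in 6, Decr2 in 5 and Ddit3 in 3. List medians that moved past 1.5 times and by over 0.1 without dim probe sets are given beside the lists. That filter kept genes high in a single group, so these medians support no result. Those of macrophage markers and brown fat genes are not given, as 12 of 15 and 13 of 19 members were dim in every group. Signal over background is the limit at levels under 6, where 8622 of 18193 genes lie by their mean, and signal near 14.59 the limit at the top.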
